A study of Mus musculus with 6 samples.

Results

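RNA of the hexosamine pathway and of O-GlcNAc cycling was measured in B16F10 mouse melanoma cells that express ovalbumin (B16F10-OVA), with and without the sugar analog Ac4ManNAz. The members were the rows of the deposited transcript table whose gene name is Gfpt1, Gfpt2, Gnpnat1, Pgm3, Uap1, Ogt, Oga, Gnpda1, Gnpda2 or Amdhd2. All 10 were found, with 35 of the 59192 listed transcripts, which sum to 10 of 21801 genes. The first group held 3 libraries of cells exposed to 50 µM Ac4ManNAz, with RNA taken on day 5 and a passage at day 3. The second held 3 libraries of untreated cells of the same line, also with a passage at day 3. For the untreated cells the labels name no vehicle. Both groups carry the ovalbumin transgene, and the labels give 1 RPMI-based medium for both. Nothing in the labels ties the libraries to independent cultures, so a p-value here reflects library-to-library spread, possibly technical.

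The hexosamine pathway turns fructose 6-phosphate and glutamine into UDP-GlcNAc, the sugar donor for N-glycans, glycosaminoglycans and the O-GlcNAc mark on nuclear and cytosolic proteins. UDP-GlcNAc is also the start of the cell's own route to N-acetylmannosamine and sialic acid. Ac4ManNAz, an acetylated azide analog of N-acetylmannosamine, enters that route after UDP-GlcNAc has been made. On nuclear and cytosolic proteins a single enzyme, OGT, adds O-GlcNAc and a single enzyme, OGA, removes it.

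Each library listed 13912 to 18974 genes above 0 FPKM, fragments per kilobase of transcript scaled to the depth of the library. Of the 7 melanocyte markers 7 averaged at least 1 FPKM. Their summed level was 7431 to 9093 FPKM in the Ac4ManNAz libraries and 7636 to 9313 FPKM in the untreated ones. Among markers of other cell types, 1 of 5 fibroblast markers (Col1a2) and 2 of 4 macrophage markers (Cd68 and Lyz2) averaged at least 1 FPKM, and none of the 5 T cell and leukocyte, 4 endothelial or 3 keratinocyte markers did, although none was at 0 in all 6 libraries. The summed level of each of these lists overlapped between the groups, at 0.126 to 5.73 FPKM with Ac4ManNAz and 0.106 to 5.15 FPKM without. In such bulk RNA, fewer cells of a type and less RNA per cell cannot be told apart. Ac4ManNAz replicate 2 stood apart for the melanocyte gene Mlana, at 158 FPKM against 856 to 1269 FPKM in the other 5 libraries. The glycolysis gene Gapdh was listed between 0.135 and 10.4 FPKM, so a listed value near 0 is not read here as absence of the RNA.

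With Ac4ManNAz, no member of the pathway passed the test. limma was run on log2(FPKM + 1) over the 9925 genes averaging 1 FPKM or more, with Benjamini-Hochberg adjustment. It called 0 of the 9 members that passed this filter, where it called 0% of all genes tested. An unadjusted p under 0.05 was reached by 0 of these 9 members, against 1.78% of all genes. 4 members averaged higher and 5 lower with Ac4ManNAz, with a median log2 difference of -0.04, while 49.6% of all genes averaged higher and their median was -0.00142. Amdhd2 changed side, to 0.00621, when the libraries were rescaled to a common sum. The 95% confidence interval stayed inside a 2-fold change up or down for 8 of the 9, as it did for 91.0% of all genes. Gnpda1 was the exception, and Gfpt2 was too low to be tested. Here and below, 2-fold is a fold of FPKM + 1, which is smaller than the fold of FPKM, most of all at low levels. With 0.1 added in place of 1, the interval was also inside 2-fold for 8 members.

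The members were listed at very different levels. Oga was the highest, at 32.2 FPKM or more in every library, and Amdhd2 came next, at no more than 29.5 FPKM. Uap1, Pgm3 and Gfpt2 formed the lower end in that order, and their ranges over the 6 libraries did not overlap. Between them lay Gnpda1, Gnpnat1, Gnpda2, Gfpt1 and Ogt, whose neighbours in order overlapped. Gnpda1 exceeded Gnpnat1 in 3 of 6 libraries and Gfpt1 exceeded Ogt in 3 of 6, so these neighbours could not be ordered. Amdhd2 exceeded Gnpda1 in 6 of 6 libraries, although their ranges overlapped, and Ogt exceeded Uap1 in 5 of 6.

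**Figure D1:**
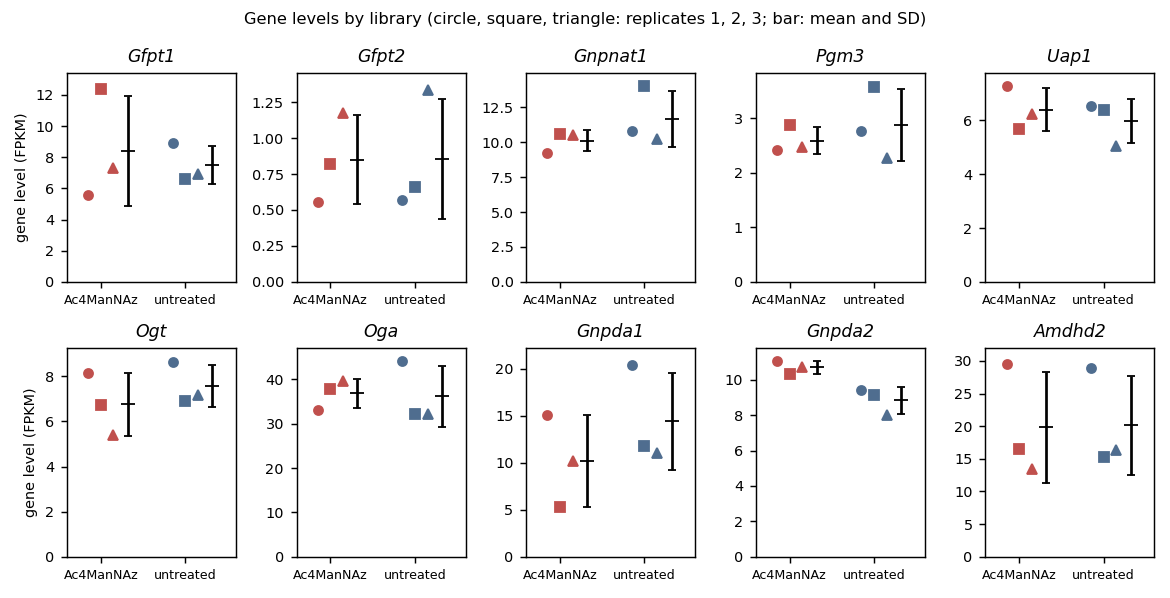
Gene levels in FPKM, summed over transcripts, in the 3 Ac4ManNAz and the 3 untreated libraries, with the mean and SD of each group beside the points. Gnpda2 is the only panel in which the 3 Ac4ManNAz values (10.3 to 11.1 FPKM) lie above the 3 untreated values (7.99 to 9.40 FPKM).

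Of the 2 isozymes of the entry step, Gfpt1 was listed at the higher RNA level. Gfpt1 encodes the glutamine:fructose-6-phosphate amidotransferase that commits sugar to the pathway (ENSMUSG00000029992, chromosome 6, 87019828 to 87069179 as deposited). It was listed at 5.55, 12.4 and 7.29 FPKM in the Ac4ManNAz libraries, against 8.89, 6.63 and 6.93 FPKM in the untreated ones. Replicate 2 with Ac4ManNAz was the highest of the 6 and replicate 1 with Ac4ManNAz the lowest, so the treated values spanned the untreated ones. The means were 8.41 ± 3.55 FPKM with Ac4ManNAz and 7.48 ± 1.23 FPKM without (SD, n = 3; the same holds for every mean ± SD below). The log2 difference of 0.09 ± 0.27 (SE) had a 95% interval from -0.54 to 0.72. Without Ac4ManNAz replicate 2 it was -0.19, so that its direction depended on this library. Gfpt2, the isozyme of the same step, was listed at 0.559, 0.818 and 1.18 FPKM with Ac4ManNAz, against 0.572, 0.662 and 1.34 FPKM in untreated cells. Its values overlapped fully, and with no filter on low genes its log2 difference was 0.00474, with an interval from -0.48 to 0.49.

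Gfpt1 has a longer form, known from muscle, that holds an extra exon. In the GENCODE M21 annotation of GRCm38 this exon is exon 9 of transcript Gfpt1-201 (chr6:87060785-87060832, plus strand) and has 48 bases, or 16 codons. The exon is shown in capitals between 12 bases on each side, above the junction of Gfpt1-204, which skips it, because the 2 forms are told apart by these bases.
Gfpt1-201: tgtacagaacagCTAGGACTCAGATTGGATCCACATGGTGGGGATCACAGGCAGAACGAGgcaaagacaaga
Gfpt1-204: tgtacagaacaggcaaagacaaga
Most of the Gfpt1 signal was assigned to Gfpt1-204. Gfpt1-201 took 0.104%, 1.10% and 1.01% of the gene's FPKM in the Ac4ManNAz libraries, against 0.0316%, 0.541% and 1.13% in the untreated libraries. Gfpt1-204 took 86.7%, 98.1% and 97.2% with Ac4ManNAz, against 96.9%, 96.9% and 92.9% without. Most of the rest went to Gfpt1-203, a short transcript of 4 exons, singled out after its values were seen. Its shares were 12.7%, 0.509% and 1.14% with Ac4ManNAz, against 3.02%, 2.49% and 5.67% without. The longer form, Gfpt1-201, stayed near 1% or below in all 6 libraries, and the groups overlapped. Besides the exon, the annotated transcripts differ by 45 bases at the 5′ end and 3955 bases at the 3′ end that Gfpt1-204 holds alone, so the split does not rest on the exon only.

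The middle steps of the pathway overlapped between the groups. Gnpnat1, which acetylates glucosamine 6-phosphate (chromosome 14, 45613791 to 45642370 as deposited), was listed at 9.23, 10.6 and 10.6 FPKM with Ac4ManNAz, against 10.8, 14.0 and 10.2 FPKM in untreated cells. Its log2 difference was -0.18 ± 0.15, with an interval from -0.53 to 0.17. Untreated replicate 2 was the highest of the 6 libraries. The main transcript Gnpnat1-201 had its lowest value in this library, 7.54 FPKM against 8.17 to 9.70 FPKM in the other 5 libraries. Gnpnat1-210 stood at 4.0 FPKM in that library and at 0 to 0.293 FPKM in the others, and Gnpnat1-202 at 1.95 FPKM and at 0 to 0.102 FPKM; both were singled out after their values were seen. For Gnpnat1-201 alone the log2 difference was 0.03, with an interval from -0.30 to 0.36. Pgm3, which converts GlcNAc 6-phosphate to GlcNAc 1-phosphate, was listed at 2.42, 2.87 and 2.47 FPKM with Ac4ManNAz and at 2.77, 3.57 and 2.27 FPKM without. The groups overlapped, with a log2 difference of -0.10 and an interval from -0.50 to 0.30. Its shorter transcript Pgm3-202, which lacks exon 11 and 624 bases of the 3′ end of Pgm3-201, took 20.3%, 10.8% and 11.2% of the gene with Ac4ManNAz and 9.45%, 10.4% and 25.7% without, so 1 library of each group stood above the rest.

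Uap1 encodes the pyrophosphorylase that makes UDP-GlcNAc, the last step (ENSMUSG00000026670, chromosome 1, 169969507 to 170002526 as deposited). Its level was 7.28, 5.69 and 6.23 FPKM with Ac4ManNAz, against 6.53, 6.39 and 5.05 FPKM without. The groups overlapped, with a log2 difference of 0.08 ± 0.15 and an interval from -0.27 to 0.44. The 3 listed Uap1 transcripts differ in 1 coding exon of the GRCm38 annotation (exon 9, chr1:170147996-170148046, minus strand). In the human enzyme the matching insertion separates AGX2, which favours GlcNAc 1-phosphate, from AGX1, which favours GalNAc 1-phosphate. Uap1-203 holds 51 bases (17 codons), Uap1-201 starts 3 bases later and holds 48 (16 codons), and Uap1-202 skips the exon and holds 75 bases at its ends that Uap1-203 lacks. The exon is printed in capitals with 12 bases of the neighbouring exons on each side, since these forms are the variable part of the gene in this table.
Uap1-203: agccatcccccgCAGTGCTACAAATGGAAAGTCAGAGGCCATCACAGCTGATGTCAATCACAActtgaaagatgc
Uap1-201: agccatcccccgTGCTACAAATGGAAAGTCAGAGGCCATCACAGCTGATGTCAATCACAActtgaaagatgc
Uap1-202: agccatcccccgcttgaaagatgc

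B16F10-OVA cells listed both kinds of Uap1 transcript at similar levels. Transcripts with the exon took 39.5%, 62.9% and 45.6% of the Uap1 FPKM in the Ac4ManNAz libraries, against 57.1%, 38.2% and 39.3% in the untreated libraries. Each group had 1 library in which the exon-bearing forms dominated, and 2 in which the form without the exon did. The mean share was 49.3 ± 12.1% with Ac4ManNAz and 44.9 ± 10.7% without, a difference of 4.46 percentage points (exact two-sided permutation p = 0.5, where 3 against 3 libraries allow no less than 0.1). Within the exon-bearing pair, Uap1-203 averaged 1.92 ± 0.378 FPKM with Ac4ManNAz and 1.75 ± 0.849 FPKM without, and Uap1-201 averaged 1.18 ± 0.289 FPKM with Ac4ManNAz and 0.967 ± 0.0739 FPKM without. This pair is told apart by the first 3 bases of the exon and by 1 base at the 3′ end, so the split between the pair rests on few bases.

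By gene sums, the deaminases of the reverse step had the largest log2 differences of the 9 tested members, and neither passed. Gnpda1 and Gnpda2 encode the 2 glucosamine-6-phosphate deaminases, which return the sugar to fructose 6-phosphate. Gnpda2 (ENSMUSG00000029209, chromosome 5, 69732344 to 69749683 as deposited) was listed at 11.1, 10.3 and 10.7 FPKM with Ac4ManNAz, against 9.40, 9.13 and 7.99 FPKM in untreated cells. It was the only member whose groups did not overlap, 1 of the 9 tested, where 5.80% of all genes had groups that did not overlap. Its log2 difference was 0.25 ± 0.12, with an interval from -0.02 to 0.52, an unadjusted limma p of 0.0644 and an adjusted p of 0.9998. Since the groups did not overlap, leaving out 1 library could not change the direction. The log2 difference of Gnpda2 then ran from 0.19 to 0.29. Its main transcript Gnpda2-201 was listed at 10.7, 9.80 and 10.1 FPKM with Ac4ManNAz, against 6.75, 8.66 and 7.11 FPKM without. That is a log2 difference of 0.40 ± 0.13 and an unadjusted limma p of 0.0219, with an adjusted p of 0.9998. Part of the gap lay in untreated replicate 1, where 2.65 FPKM were assigned to the shorter Gnpda2-207, a transcript with no base outside Gnpda2-201, against 0.349 to 0.512 FPKM in the other 5 libraries; this transcript was singled out after its values were seen.

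Gnpda1 averaged lower with Ac4ManNAz and had the widest range of the members, 3.84-fold over the 6 libraries. It was listed at 15.1, 5.30 and 10.2 FPKM with Ac4ManNAz, against 20.4, 11.8 and 11.0 FPKM in untreated cells. Replicate 1 was the highest library of each group, and Ac4ManNAz replicate 2 the lowest of all 6. The log2 difference was -0.51 ± 0.37, and its interval, from -1.39 to 0.36, was the only one of the 9 to reach past 2-fold. Without Ac4ManNAz replicate 2 the difference was -0.15, without untreated replicate 1 it was -0.25, and without Ac4ManNAz replicate 1 it was -0.83. The ratio of Gnpda2 to Gnpda1 was 0.731, 1.95 and 1.06 with Ac4ManNAz, against 0.461, 0.775 and 0.723 without, and these values overlapped (exact two-sided permutation p = 0.2). The log2 ratio differed by 0.85, and by 0.46 without Ac4ManNAz replicate 2.

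Amdhd2 deacetylates GlcNAc 6-phosphate to glucosamine 6-phosphate, the reverse of the step of Gnpnat1. The level of Amdhd2 was 29.5, 16.5 and 13.5 FPKM with Ac4ManNAz, against 28.8, 15.2 and 16.3 FPKM in untreated cells. Replicate 1 stood at 29.5 FPKM with Ac4ManNAz and 28.8 FPKM without, and the other 4 libraries lay between 13.5 and 16.5 FPKM. The SD within each group, 8.51 FPKM with Ac4ManNAz and 7.57 FPKM without, was far above the gap between the means of 19.8 and 20.1 FPKM. The log2 difference was -0.04 ± 0.33, with an interval from -0.83 to 0.75. Transcript usage set Ac4ManNAz replicate 2 apart. The transcripts Amdhd2-202 and Amdhd2-206 share an exon of 132 bases that the main transcript Amdhd2-201 lacks (exon 4). Together they took 1.63%, 39.9% and 11.8% of the gene with Ac4ManNAz, against 3.18%, 7.01% and 11.6% without. Amdhd2-202, named after its values were seen, was listed at 4.09 FPKM in that library and at 0 in the other 5.

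**Figure D2:**
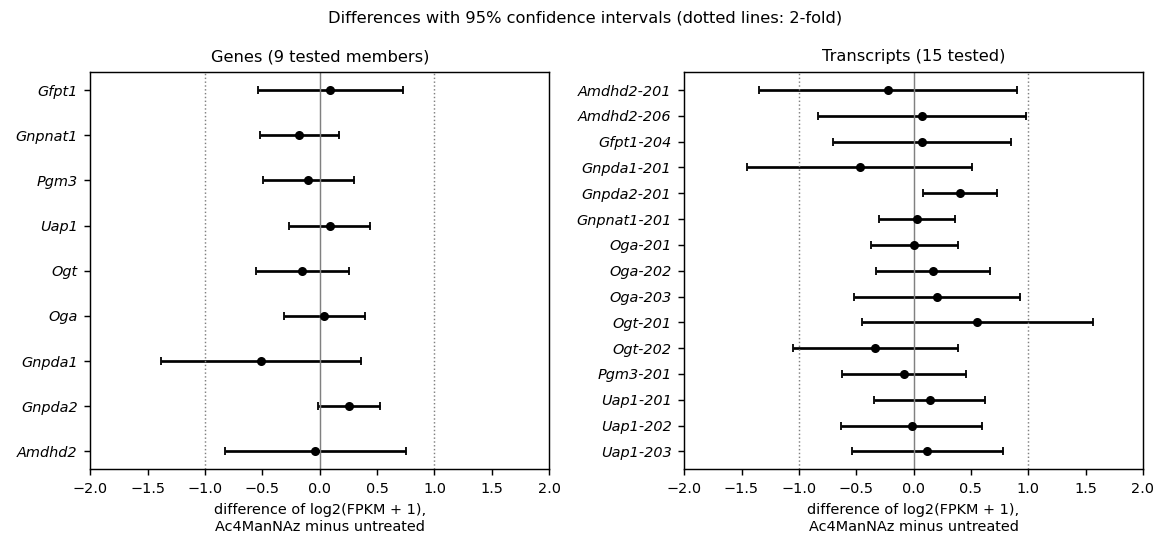
Differences of log2(FPKM + 1), Ac4ManNAz minus untreated, for the 9 tested genes (left) and the 15 tested transcripts (right). Points are limma estimates, bars 95% confidence intervals, and dotted lines mark 2-fold; Gnpda1 is the only gene whose bar crosses a dotted line, and Gnpda2-201 the only transcript whose bar lies wholly on 1 side of 0.

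The writer and eraser of O-GlcNAc did not differ between the groups beyond the spread of the libraries. Ogt, on the X chromosome (ENSMUSG00000034160, 100683666 to 100727957 as deposited), was listed at 8.16, 6.75 and 5.38 FPKM with Ac4ManNAz, against 8.64, 6.91 and 7.17 FPKM in untreated cells. Ac4ManNAz replicate 3 was the lowest library and the groups overlapped. The log2 difference was -0.15 ± 0.17, with an interval from -0.56 to 0.25. It was -0.0195 without Ac4ManNAz replicate 3, -0.0659 without untreated replicate 1 and -0.28 without Ac4ManNAz replicate 1. Oga (ENSMUSG00000025220, chromosome 19, 45738698 to 45772276 as deposited) was listed at 33.2, 37.8 and 39.5 FPKM with Ac4ManNAz, against 44.1, 32.2 and 32.3 FPKM without. Untreated replicate 1 was the highest of the 6, and the log2 difference was 0.04 ± 0.15, with an interval from -0.315 to 0.39. Summed over the listed coding transcripts only, Oga FPKM exceeded Ogt FPKM 4.07-, 5.61- and 7.36-fold with Ac4ManNAz, against 5.10-, 4.66- and 4.50-fold without. The mean ratio was 5.68 ± 1.65 with Ac4ManNAz and 4.75 ± 0.309 without (exact two-sided permutation p = 0.6). The log2 ratio differed by 0.22, by 0.00818 without Ac4ManNAz replicate 3 and by 0.44 without Ac4ManNAz replicate 1. The untreated ratios lay close together, while the treated ones spread to both sides of them.

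Ogt was listed as 2 transcripts. Ogt-201 keeps 30 bases (10 codons) at the start of exon 2 (chrX:101642976-101643005 in GRCm38, plus strand) that Ogt-202 skips by splicing to a later acceptor. The bases are printed in capitals between 12 bases on each side, with the junction of Ogt-202 below, because they are the coding bases that separate the 2 forms.
Ogt-201: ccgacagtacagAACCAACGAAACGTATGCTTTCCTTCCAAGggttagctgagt
Ogt-202: ccgacagtacagggttagctgagt
The annotated transcripts differ more outside the coding part: Ogt-201 keeps 107 bases of exon 1 and runs 1411 bases further at its 3′ end, while Ogt-202 holds 4 bases that Ogt-201 lacks. Ogt-202 was listed at 7.13, 5.02 and 3.35 FPKM with Ac4ManNAz, against 8.27, 4.79 and 6.93 FPKM in untreated cells. Ogt-201 was listed at 1.03, 1.73 and 2.03 FPKM with Ac4ManNAz, against 0.369, 2.11 and 0.234 FPKM without. Ogt-201 was thus low in 2 of the 3 untreated libraries and, in untreated replicate 2, the highest of the 6.

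As a share of the gene, Ogt-201 took 12.6%, 25.6% and 37.7% with Ac4ManNAz, against 4.27%, 30.6% and 3.27% without. The mean was 25.3 ± 12.6% with Ac4ManNAz and 12.7 ± 15.5% without, a difference of 12.6 percentage points. That was about the SD among Ac4ManNAz libraries and smaller than the SD among untreated libraries, where replicate 2 stood apart. limma on the arcsine square root of the shares gave an unadjusted p of 0.216 and a Benjamini-Hochberg adjusted p of 0.9998. The exact two-sided permutation p was 0.3. Without untreated replicate 2 the difference was 21.5 points, and over all 6 fits without 1 library it ran from 6.42 to 21.5 points, without changing direction. On the log2(FPKM + 1) scale Ogt-201 differed by 0.56 ± 0.41 and Ogt-202 by -0.33 ± 0.29, and both intervals included 0 and reached past 2-fold. In mammals the Ogt message is also known for a detained intron whose removal responds to the O-GlcNAc level. GENCODE M21 lists 3 retained-intron transcripts for Ogt and 22 over the 10 members. These were not analysed here, since the 35 listed transcripts are all annotated as protein coding.

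**Figure D3:**
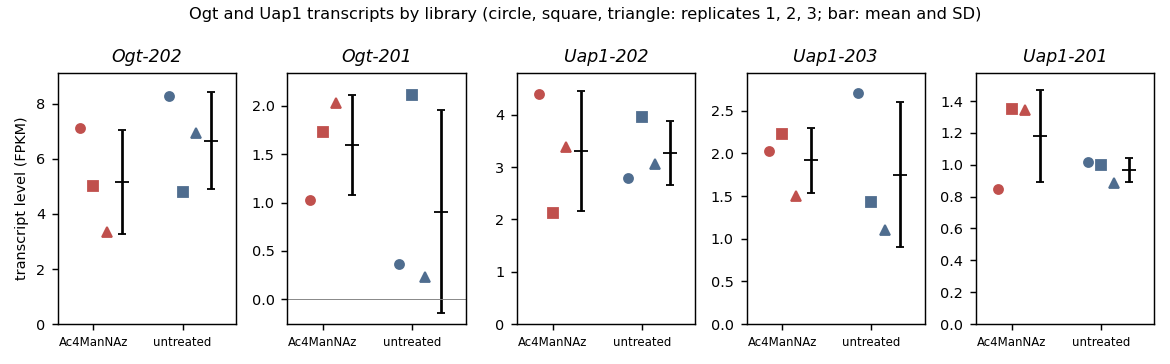
Levels in FPKM of the 2 Ogt and the 3 Uap1 transcripts in each Ac4ManNAz and untreated library, with the mean and SD of each group beside the points. Ogt-201 lies between 1.03 and 2.03 FPKM with Ac4ManNAz, inside the untreated range of 0.234 to 2.11 FPKM; its untreated SD bar (1.05 FPKM) is longer than its mean (0.905 FPKM) and so runs below 0.

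Oga usage varied less. The main transcript Oga-201 took 92.0%, 88.0% and 86.5% of the gene with Ac4ManNAz, against 91.6%, 92.6% and 88.0% without. Oga-203, a short form with 964 bases outside Oga-201, took 4.91%, 8.84% and 9.94% with Ac4ManNAz, against 5.73%, 5.33% and 8.77% without. Oga-202, a short form of 3 exons, averaged 1.20 ± 0.185 FPKM with Ac4ManNAz and 0.959 ± 0.258 FPKM without. The groups overlapped for each of these 3.

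Across the whole set no change of transcript level or usage was called. Of the 35 member transcripts 24 were above 0 in all 6 libraries, and 15 reached a mean of 1 FPKM. limma with Benjamini-Hochberg adjustment called 0 of these 15 transcripts, against 0.0606% of the 14846 tested in the table. An unadjusted p under 0.05 was reached by 1 of the 15, Gnpda2-201, against 2.54% of all transcripts, and it was also the only 1 of the 15 whose groups did not overlap, against 6.39%. On the log2(FPKM + 1) scale, the 95% interval lay within 2-fold for 11 of the 15, against 67.7%. This does not bound the fold of FPKM, since several of these transcripts averaged only a few FPKM. With 0.1 added in place of 1, the log2 difference of Ogt-201 was 1.22, against 0.56. Of the 17 member transcripts with a mean share of 5% to 95%, 0 were called in their share (unadjusted: 0 of 17, against 3.66%), where 0.176% of the 13630 shares tested were called. In 0 of these 17 did the shares of the groups separate, against 8.51% of all shares.

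**Figure D4:**
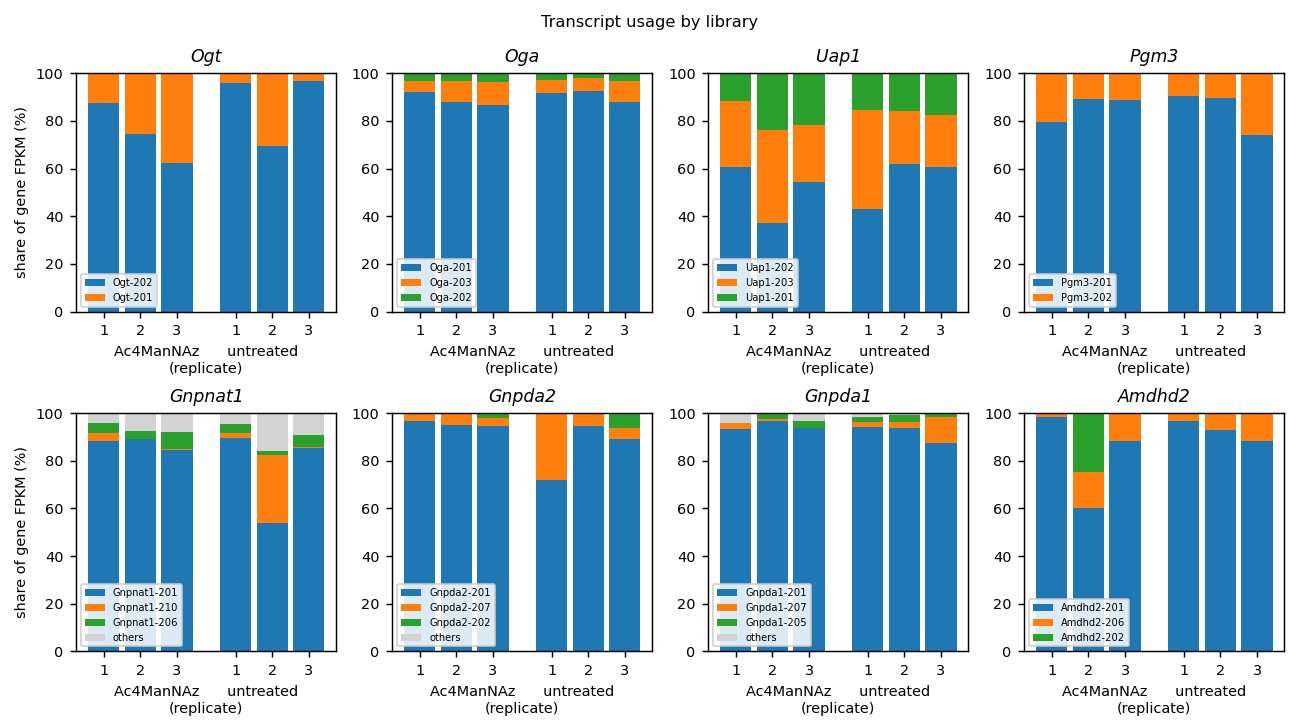
Share of each gene's FPKM taken by its 3 most abundant transcripts or fewer in the 3 Ac4ManNAz and 3 untreated libraries, for 8 members (Gfpt1 and Gfpt2 are not drawn); grey stands for the remaining transcripts. The main transcript is lowest in 1 bar for Gnpnat1 (untreated replicate 2, 53.8%), Gnpda2 (untreated replicate 1, 71.8%) and Amdhd2 (Ac4ManNAz replicate 2, 60.1%), while the shares of Ogt, Uap1 and Pgm3 vary over several bars of both groups.

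Genes around the pathway were compared as 7 lists, from the enzymes that supply it to those that use its product. Of 68 genes, 60 were tested, 26 averaged higher and 34 lower with Ac4ManNAz, and limma with Benjamini-Hochberg adjustment called 0 (0% of all genes). The median log2 difference of the 60 was -0.02. The groups did not overlap for 1 gene with all Ac4ManNAz values above (2.10% of all genes) and for 2 genes with all below (3.71%).

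Of the 13 genes that provide fructose 6-phosphate, glutamine or UTP, 12 averaged lower and 1 higher, with a median log2 difference of -0.11 against -0.00142 over all genes, and 12 had intervals within 2-fold. Cad, the enzyme of the first steps of pyrimidine and so of UTP synthesis, was listed at 16.2, 14.2 and 16.6 FPKM with Ac4ManNAz, against 21.4, 19.9 and 21.5 FPKM in untreated cells. Its groups did not overlap. The log2 difference was -0.40 ± 0.11, with an interval from -0.65 to -0.15, an unadjusted limma p of 0.00687 and an adjusted p of 0.9998. With groups that did not overlap, leaving out 1 library could not change the direction. The difference of Cad then ran from -0.44 to -0.34. Uck2, a uridine kinase, averaged 31.9 ± 1.25 FPKM with Ac4ManNAz and 34.6 ± 2.04 FPKM without, with overlapping libraries.

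The other lists had medians between -0.02 and 0.05. In salvage and UDP-sugar interconversion, 3 of 7 genes averaged higher, and Nagpa, which uncovers mannose 6-phosphate tags by removing GlcNAc, had 8.18 ± 1.63 FPKM with Ac4ManNAz and 9.53 ± 1.28 FPKM without. Renbp, a GlcNAc 2-epimerase, averaged 58.8 ± 13.0 FPKM with Ac4ManNAz and 68.4 ± 15.7 FPKM without. Of the 5 tested genes of the sialic acid branch, 3 averaged higher. Gne, which takes UDP-GlcNAc into that branch, was listed at 5.72, 13.2 and 7.17 FPKM with Ac4ManNAz, against 6.57, 4.95 and 3.38 FPKM without, with overlapping groups. Nanp, the sialic acid phosphatase, was listed at 4.15, 3.61 and 3.19 FPKM with Ac4ManNAz, all above the 2.95, 3.18 and 0 FPKM of untreated cells, where 1 library is listed at 0. Neither passed, with unadjusted limma p of 0.0765 for Gne and 0.146 for Nanp.

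Of 16 tested enzymes that spend UDP-GlcNAc in the ER and Golgi, 9 averaged higher and 7 lower. Dpagt1, which starts the dolichol-linked N-glycan precursor, was listed at 0.406, 0.529 and 0.411 FPKM with Ac4ManNAz, against 0.421, 1.24 and 4.01 FPKM without, so its log2 difference was -0.80 (interval -1.80 to 0.20). Without untreated replicate 3 its mean fell under the filter. Mgat1, which opens the branching of N-glycans, stood at 2.81, 2.01 and 8.97 FPKM with Ac4ManNAz, against 2.46, 1.74 and 3.53 FPKM without. Among the 4 transporter genes 2 averaged higher. The nucleotide sugar transporter Slc35d1 was listed at 1.18, 1.25 and 1.19 FPKM with Ac4ManNAz, all below the 1.39, 1.61 and 1.89 FPKM of untreated cells, giving a log2 difference of -0.25 and an unadjusted limma p of 0.134. Slc35d2 averaged 2.10 ± 0.638 FPKM with Ac4ManNAz and 1.77 ± 0.293 FPKM without.

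Of 10 tested partners and substrates of OGT, 5 averaged higher. The nuclear pore gene Nup62 was listed at 42.0, 11.9 and 14.0 FPKM with Ac4ManNAz, against 39.8, 14.4 and 43.0 FPKM without, and Tet3, a DNA demethylase that binds OGT, averaged 2.47 ± 1.14 FPKM with Ac4ManNAz and 1.90 ± 0.131 FPKM without. Of the 5 transcription factor genes linked to Gfpt1, 3 averaged higher, with Myc at 2.74 ± 0.978 FPKM with Ac4ManNAz and 1.95 ± 0.646 FPKM without. The stress factor gene Atf4 averaged 134 ± 50.1 FPKM with Ac4ManNAz and 112 ± 27.5 FPKM without. The groups overlapped for Nup62, Tet3, Myc and Atf4.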

How the data were processed

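After rRNA removal, the 6 RNA samples were sequenced as dUTP strand-specific libraries, per the labels' protocols. The authors deposited 1 table of FPKM values by transcript and library; its name gives the unit. The aligner, quantifier, build and annotation were not given in the sources used here. FPKM were summed per gene identifier. limma 3.58.1 in R 4.3.3 (eBayes with trend) was run on log2(FPKM + 1) over genes, and separately over transcripts, that averaged 1 FPKM or more, with group as the only term. Transcript shares (mean 5% to 95%, genes above 0 in every library) were tested by limma without trend. All tests were two-sided, with Benjamini-Hochberg adjustment over the whole table at 0.05. The gene and share tests were tried on the deposited values after large known shifts, or swaps of transcripts, had been put into some genes. Gene shifts as small as the member differences were not tried. Python 3.11.15, pandas 2.3.3, numpy 2.4.6, scipy 1.17.1 and matplotlib 3.10.9 were used for tables, permutation tests and figures.

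Transcript structures and sequences came from GENCODE M21 (GRCm38), where 35 of 35 member transcripts were found by identifier with the same span; deposited coordinates belong to another, unnamed build. No counts were given. For genes with a single transcript, the commonest low product of FPKM and length took in 7.4% to 19.3% of low values within 2%. Fragment numbers could therefore not be recovered, the depth is unknown, and counting intervals are left out.

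Named were all members, their transcripts averaging 1 FPKM or more or a mean share of at least 10%, and the 2 genes with the smallest p of each of 7 context lists. The members and lists were chosen with earlier results of these data known. Alternatives were other pseudocounts, filters, scalings, eBayes settings, sample weights, a replicate block, the most abundant transcript per gene, other share settings and each library left out.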

Additional observations from a re-analysis of the deposited data

How the results depend on the processing

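Under every alternative run, 0 members were called as genes, transcripts or shares, and 6 to 9 members had intervals within 2-fold. The number of members tested varied too. For example, Gfpt2 entered without a filter (9 within 2-fold), and Pgm3 left at a mean of at least 5 FPKM (7 within 2-fold). Over the whole table, limma called 2 genes with sample quality weights, 4 with the most abundant transcript per gene and 0 to 1 with 1 library left out. It called 2 transcripts at a mean of at least 5 FPKM, 15 without trend, 19 with weights, 1 with the replicate block and 4 to 14 with 1 library left out. It called 0 shares with the replicate block and 7 to 27 with 1 library left out. Same-numbered libraries deviated together with r = 0.0643, 0.0188 and 0.2606 across genes, and differently numbered ones with r from -0.1743 to 0.0839. The same-numbered value was the highest for Ac4ManNAz replicates 1 and 3, but not for replicate 2. The main fits did not take the numbers as pairs, while the replicate block did. Of 398 other settings of 55 named differences, 5 changed sign: Gnpnat1 (0.0299), Uap1 (-0.0161) and Nagpa (0.294) with the most abundant transcript, and Amdhd2 (0.00621) and Uap1-202 (0.0158) when libraries were rescaled to a common sum. The cause was not tested.

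Of 327 fits without 1 library, 41 changed sign. The gene differences then ran from -0.19 to 0.32 for Gfpt1, -0.21 to 0.0277 for Pgm3, -0.0162 to 0.15 for Uap1, -0.0367 to 0.18 for Oga, -0.35 to 0.24 for Amdhd2, -0.0482 to 0.82 for Mgat1, -0.00406 to 0.29 for Slc35d2, -0.0354 to 0.44 for Tet3 and -0.0486 to 0.52 for Atf4 (log2). Transcript differences ran from -0.0507 to 0.36 for Uap1-203, -0.20 to 0.20 for Uap1-202, -0.24 to 0.35 for Gfpt1-204, -0.25 to 0.0669 for Pgm3-201, -0.0561 to 0.11 for Gnpnat1-201, -0.20 to 0.41 for Amdhd2-206, -0.67 to 0.0814 for Amdhd2-201 and -0.0853 to 0.16 for Oga-201. Share differences in percentage points ran from -2.65 to 8.22 for Uap1-203, -10.6 to 2.31 for Uap1-202, -4.16 to 4.19 for Pgm3-201, -4.19 to 4.16 for Pgm3-202, -0.235 to 17.7 for Gnpnat1-201, -0.544 to 6.16 for Amdhd2-206 and -18.6 to 0.544 for Amdhd2-201. With 3 libraries per group, the intervals reached past 2-fold for the genes Gnpda1, Gne, Nanp, Dpagt1, Mgat1 and Nup62 and the transcripts Gnpda1-201, Amdhd2-201, Ogt-201 and Ogt-202. The Ogt gene difference ran from -0.28 to -0.0195 without 1 library, and was -0.29 with weights and -0.33 for its most abundant transcript. Alternatives for the 2 ratios were chosen after seeing the data. Without 1 library the log2 ratio differences ran from 0.00818 to 0.44 for Oga over Ogt and from 0.46 to 1.17 for Gnpda2 over Gnpda1, and for the most abundant transcripts they were 0.41 and 0.98.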
